A study of Mus musculus with 21 samples.

Results

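B cells that carry BCL2 and those that do not were compared in how far the cells of the mesenteric lymph nodes (mLN) differ from the cells of the spleen. For each gene the log2 fold change from spleen to mLN in HEL pos B cells was subtracted from the same change in BCL2 HEL pos B cells, and this difference of differences is called the interaction. A positive value means that the gene lay relatively higher in the mLN with BCL2, and a negative value that it lay relatively lower. The members were all genes with enough counts to test, 11419 of the 23337 in the table, in 12 of the series' 21 libraries.

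The series measured RNA from sorted B cells of spleen, mLN and Peyer's patches (PP, the lymphoid follicles of the gut wall) and concerns self-reactive B cells of the gut. All animals were C57BL/6 mice aged 8 to 12 weeks, those of 1 group shared a cage, and cells went straight into TRIzol. The HEL pos group has 3 libraries per tissue, a pool and the libraries numbered 392 and 399, and the BCL2 HEL pos group has 3, numbered 922, 926 and 950. The labels expand neither HEL nor BCL2 and name neither the promoter nor the cell type that drives BCL2, and they do not say how many mice entered the pool or whether each number is 1 mouse. P-values below are thus set against the scatter among libraries, some of which may be technical.

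BCL2 is the founding antiapoptotic protein of its family, which sits on the outer mitochondrial membrane and binds the proapoptotic members such as BIM, so that cells carrying more of it survive signals that would otherwise kill them. The spleen holds follicular B cells and also marginal zone B cells, which depend on the receptor NOTCH2 and its nuclear partner RBPJ and carry much CD21 and CD1d. The mLN drain the gut and receive B cells that leave the blood through high endothelial venules and depart again by sensing sphingosine 1-phosphate.

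The 12 libraries held 6578763 to 10384341 counts, 12747 to 16283 genes had a count, and 3 counts came to 0.289 to 0.456 CPM (counts relative to the total of their library, on a fixed scale), which covers counting error only. Spearman correlations across genes within a group lay between 0.911 and 0.967. B cell markers, 11 genes including Cd79a, summed to 14840 to 26340 CPM in these libraries. Y-linked transcripts (4 genes) did not exceed 0.72 CPM in libraries 392 and 399 of HEL pos cells. They lay between 92.3 and 161 CPM in the BCL2 HEL pos libraries and between 140 and 146 CPM in the HEL pos pools. Xist, a transcript of female cells, stood at 142 to 278 CPM in the BCL2 HEL pos libraries and 124 to 193 CPM in the pools. In 392 and 399 it stood at 232 to 389 CPM. The BCL2 libraries and the pools thus held both Y-linked transcripts and Xist. The pools are the HEL pos libraries that match the BCL2 ones in this respect. Whether a BCL2 library holds RNA of more than 1 mouse was not tested. Granulocyte markers (8 genes) summed to 53.0 to 191 CPM in spleen HEL pos libraries and at most 0.567 CPM in the other 9. Markers of T and NK cells (14 genes) summed to 17.3 to 36.3 CPM in spleen and 29.4 to 89.3 CPM in mLN HEL pos libraries, against 9.43 to 21.0 and 10.6 to 13.6 CPM with BCL2. Single markers of this sum went different ways. In spleen Thy1 stood at 7.64 to 14.7 CPM in HEL pos and at 0.266 to 0.709 CPM in BCL2 libraries. Cd3e stood there at 0.118 to 0.864 and at 2.125 to 3.87 CPM. In mLN Klrb1c stood at 1.05 to 4.24 CPM in HEL pos and at 5.11 to 6.69 CPM in BCL2 libraries. In bulk RNA fewer cells of a type and less RNA per cell cannot be told apart.

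Bcl2 itself, on mouse chromosome 1, checks the label. It stood at 88.0, 51.2 and 67.5 CPM in spleen and 99.3, 50.7 and 65.8 CPM in mLN of the HEL pos pool, 392 and 399. In the BCL2 libraries 922, 926 and 950 it stood at 182, 145 and 177 CPM in spleen and 175, 134 and 158 CPM in mLN. All 6 BCL2 libraries were above all 6 HEL pos libraries, by 1.28 ± 0.24 on the log2 scale in spleen and 1.11 ± 0.23 in mLN (SE, edgeR adjusted p = 0.00129 and 0.00336). The interaction of Bcl2 was -0.17 ± 0.33 (adjusted p = 0.958, 95% interval -0.851 to 0.516). The labels do not give the species of the BCL2 sequence, and reads of a human transcript that were counted on the mouse gene cannot be told apart from mouse Bcl2.

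The node-spleen difference was smaller with BCL2 for 42 of the 44 genes that passed the test, whichever way the gene went, beside 65.6% of the 8512 genes whose average log2 CPM reached 3. Marginal zone and B cell surface genes such as Hes1, Cr2, Cd22 and Ms4a1 were lower in mLN than in spleen HEL pos cells and less so in BCL2 HEL pos cells, while Axl, Dusp4, Gsto1 and Folr4 were higher in mLN and less so with BCL2. The interaction was called for 44 of 11419 genes (0.385%), 25 higher (0.219%) and 19 lower (0.166%), by the quasi-likelihood test of edgeR at an adjusted p under 0.05. The median interaction over all genes was 0.00, and 1066 genes (9.34%) had an unadjusted p under 0.05. All 44 are among the 752 genes (6.59%) for which the 9 differences between an mLN and a spleen library of 1 arm did not overlap those of the other arm. The calls and these differences use the same libraries, so this is a description.

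**Figure D1:**
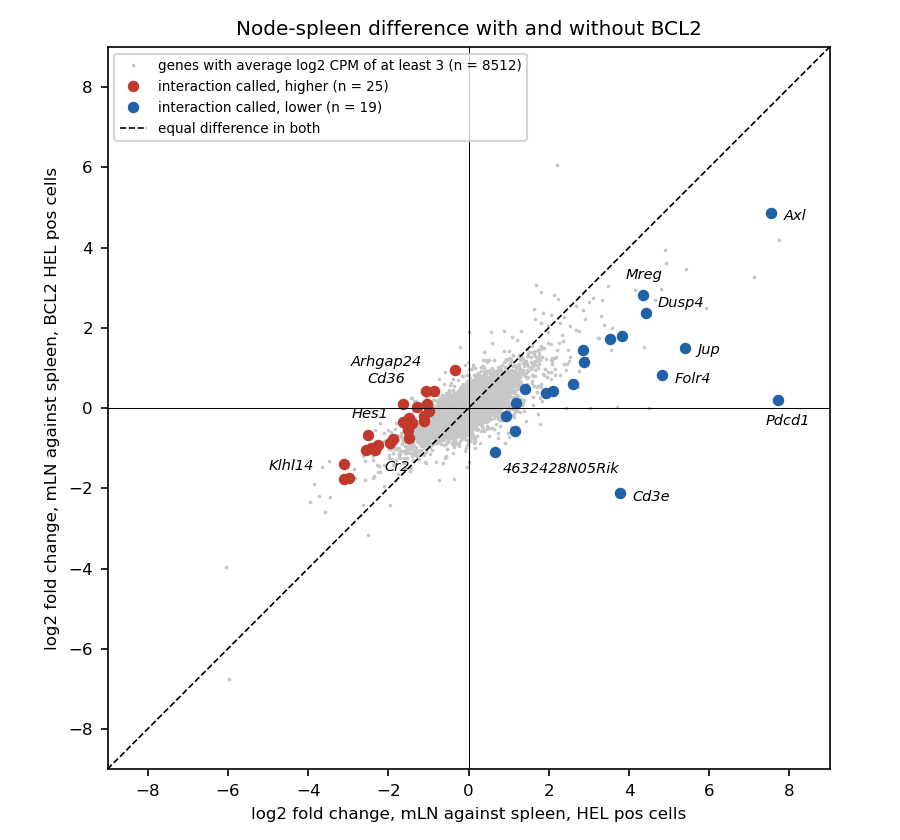
Log2 fold change from spleen to mLN in HEL pos cells (x axis) and in BCL2 HEL pos cells (y axis), 1 point per gene, with the 25 genes called higher in the interaction in red and the 19 called lower in blue. The red points lie left of zero and above the line of equal difference, and the blue points lie right of zero and below it.

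All 25 higher calls had a negative node-spleen change in HEL pos cells, and all 19 lower calls a positive one. These arm values enter the interaction itself and are given as a description. In 34 of the 44 the change had the same sign in both kinds of cells and was smaller with BCL2, and in 10 the signs differed. Of those 10, Arhgap24 and 4632428N05Rik had the larger change with BCL2. The change was called in HEL pos cells for 42 of the 44 genes and in BCL2 HEL pos cells for 23, against 2794 (24.5%) and 1142 (10.0%) of all 11419 genes.

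The arms also differed in width over all genes. Among genes whose average log2 CPM reached 3, the interquartile range of the node-spleen log2 fold change was 0.642 in HEL pos and 0.469 in BCL2 HEL pos cells. Of the 2794 genes called in HEL pos cells, 2634 had the same sign with BCL2 and 91.1% a smaller change, with a median ratio of 0.544 to the change in HEL pos cells. A gene picked in 1 arm tends to look smaller in the other, so the reverse choice stands beside it: of the 1142 genes called with BCL2, 1120 had the same sign in HEL pos cells and 64.8% a larger change there, with a median ratio of 1.175. Over all 8512 genes at this level, chosen by neither arm, 65.6% had the smaller change with BCL2.

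The count depends on the libraries. It was 15 without the spleen HEL pos pool, 10 without spleen 399, 16 without mLN 392 and 7 without mLN 399; among the BCL2 libraries it was 23, 4 and 15 without spleen 922, 926 and 950 and 2 and 5 without mLN 922 and 950. Of the 44 genes, 2 to 31 stayed called in these and the other 3 omissions, and all 44 kept their direction in each of 20 alternative settings, including the fit in which the pools alone stood for HEL pos cells. Hes1 and Tagap stayed called without any 1 library, while Susd3 and Ap1s2 lost their call in every omission. Of the genes described below, Gsto1 and S1pr1 kept their call in 11 of 12 omissions, Rbpj, Cr2 and Dusp4 in 8, Ampd3 and Hpgds in 7, Ms4a1 in 6, and Tmem123, Jup and Arhgap24 in 5. Axl, Klhl14, Litaf and Pdcd1 kept it in 4, Cd1d1, Ifi30, Vat1 and Cd3e in 3, Cd36, Bank1 and Folr4 in 2, and Cd22, Cyp27a1, Mcoln2 and 4632428N05Rik in 1.

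**Figure D2:**
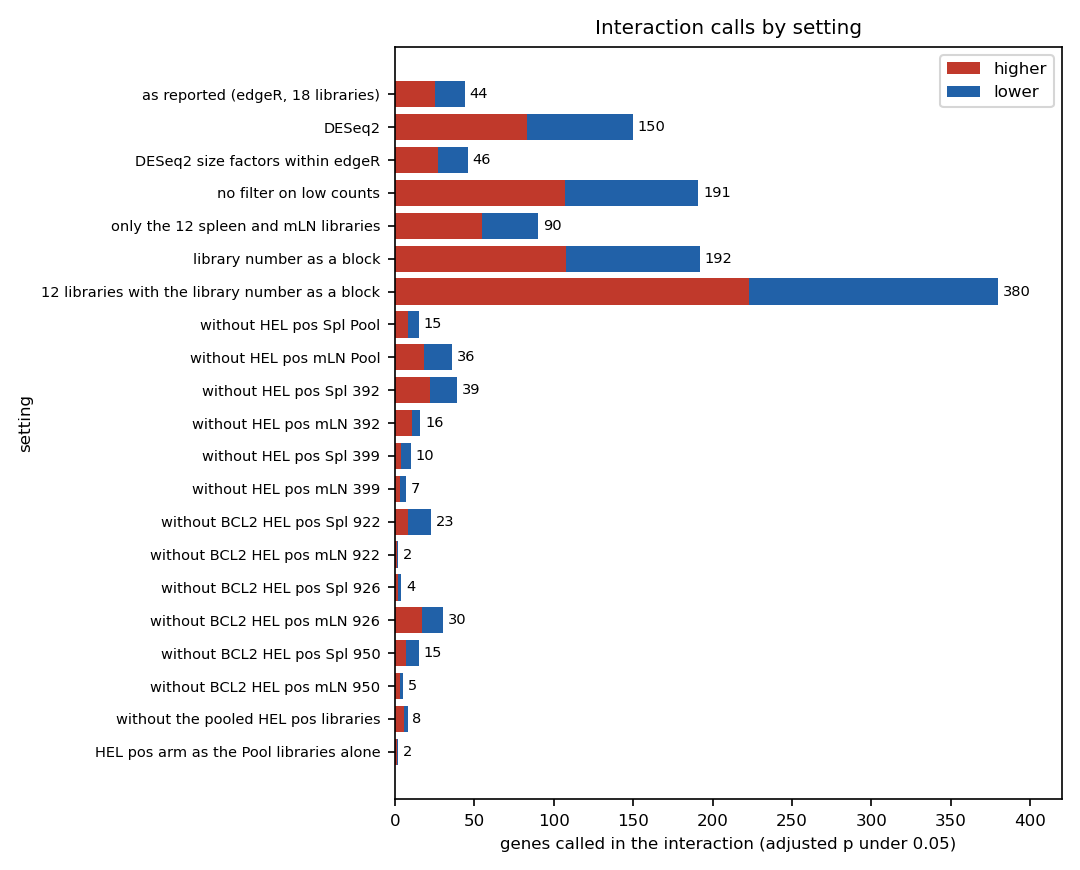
Number of genes called in the interaction (x axis) under each setting (y axis), split into higher (red) and lower (blue). The count runs from 2 to 39 when 1 library is left out and reaches 380 with 12 libraries and the library number as a block.

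Of 16 tested marginal zone genes 4 were called higher in the interaction, Hes1, Cr2, Cd1d1 and Cd36, and 1 lower, Rbpj, beside 0.385% of all genes called. The list's median interaction was 0.76 beside 0.00 for all genes, with 15 of 16 values above zero. From spleen to mLN, 10 of the 16 fell and 1 rose in HEL pos cells (median -1.24), and 5 fell and 1 rose in BCL2 HEL pos cells (median -0.38), beside 24.5% and 10.0% of all genes called.

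Hes1, a transcriptional repressor switched on by Notch signalling, had the smallest p of all genes. It stood at 97.3, 111 and 112 CPM in spleen and 21.7, 18.7 and 16.2 CPM in mLN of the HEL pos pool, 392 and 399. With BCL2 it stood at 59.4, 55.8 and 45.4 CPM in spleen and 39.8, 29.8 and 31.3 CPM in mLN of 922, 926 and 950. The 4 groups did not overlap: spleen HEL pos cells were highest and mLN HEL pos cells lowest, with both BCL2 groups between them. The change was -2.50 ± 0.17 in HEL pos and -0.67 ± 0.16 in BCL2 HEL pos cells, and the interaction was 1.83 ± 0.23 (SE, adjusted p = 9.48e-04). Hes1 lies on chromosome 16 from 30064384 to 30067796 (mm10, plus strand).

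Rbpj, the DNA-binding partner of activated Notch receptors, went the other way. Its levels were 32.9, 30.6 and 32.5 CPM in spleen and 80.1, 65.5 and 74.4 CPM in mLN HEL pos libraries. With BCL2 they were 57.2, 63.1 and 61.9 CPM in spleen and 56.6, 71.4 and 70.5 CPM in mLN. Spleen HEL pos libraries were the low ones, and the 2 BCL2 groups overlapped. The interaction was -1.07 ± 0.18 (adjusted p = 0.0182), from 1.19 in HEL pos and 0.12 in BCL2 HEL pos cells. The annotation holds processed pseudogenes of Rbpj, so its counts are uncertain where reads fit both.

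Cr2 encodes the complement receptor CD21, and Cd1d1 a molecule that presents lipids to NKT cells. Cr2 stood at 1131, 559.9 and 989 CPM in spleen and 154, 159 and 188 CPM in mLN HEL pos libraries, and at 546, 594 and 618 CPM in spleen and 287, 263 and 331 CPM in mLN BCL2 libraries. Spleen and mLN did not overlap in either kind of cells, and the spleen HEL pos library 392 lay among the BCL2 spleen libraries. The interaction of Cr2 was 1.42 ± 0.25 (adjusted p = 0.0236), with changes of -2.42 and -0.997. It was 1.90 (adjusted p = 0.0179) when the pools alone stood for HEL pos cells and 1.18 (adjusted p = 0.0698) without the pools, and the call was kept in 8 of 12 omissions of 1 library. Cd1d1 stood at 90.1, 54.5 and 81.3 against 17.2, 14.5 and 15.3 CPM in HEL pos and at 40.4, 43.7 and 41.3 against 22.1, 25.2 and 19.1 CPM in BCL2 HEL pos cells, spleen before mLN, an interaction of 1.35 ± 0.25 (adjusted p = 0.0236) that kept its call in 3 of 12 omissions. Library 392 was again the lowest of the spleen HEL pos libraries, as it was for the mean log2 CPM of the whole list, 5.88 beside 6.64 in the pool and 6.38 in 399; the BCL2 spleen libraries lay between 5.49 and 5.58, and mLN libraries between 4.92 and 5.26.

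Cd36, a receptor for fatty acids and lipoproteins, differed mostly by its level in the spleen. It stood at 366, 526 and 539 CPM in spleen and 147, 251 and 284 CPM in mLN HEL pos libraries. With BCL2 it stood at 69.5, 65.9 and 80.0 CPM in spleen and 108, 74.9 and 106 CPM in mLN. All BCL2 libraries were below all HEL pos libraries, and the BCL2 spleen and mLN libraries overlapped. The interaction was 1.49 ± 0.32 (adjusted p = 0.0358) and kept its call in 2 of 12 omissions. Of the list's other members, Notch2 stood at 0.54 ± 0.21 (adjusted p = 0.406) and the Notch target Dtx1 at 1.17 ± 0.31 (adjusted p = 0.119) without passing the test.

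**Figure D3:**
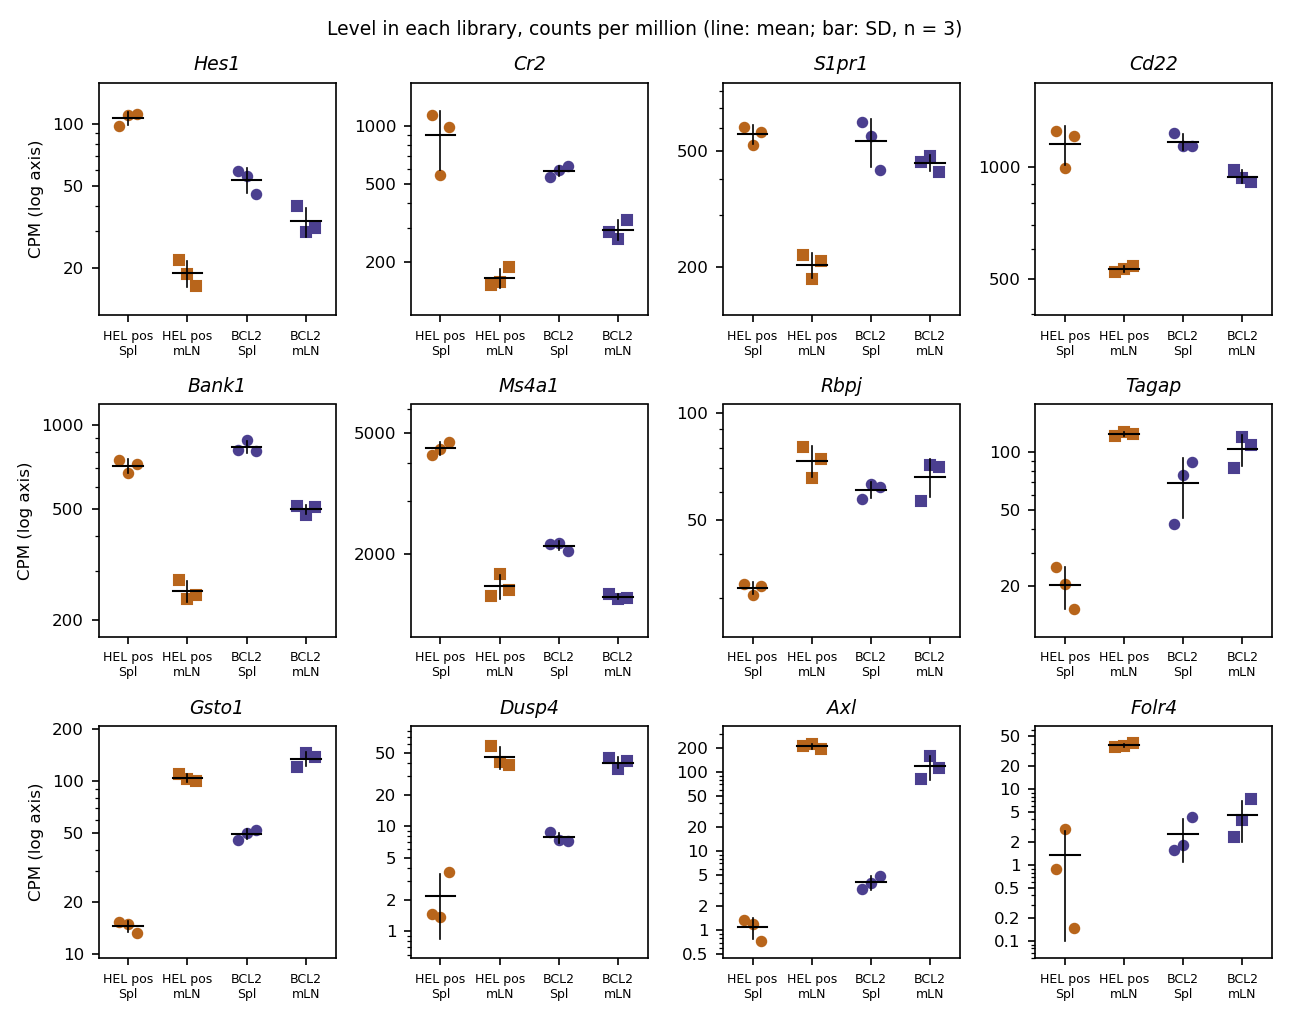
Level of 12 genes in each of the 12 libraries (y axis, CPM on a log axis) by group (x axis), circles for spleen and squares for mLN, orange for HEL pos and purple for BCL2 HEL pos cells, with the mean and SD of 3 libraries; a bar that would pass below zero is cut. For each gene the step from spleen to mLN is smaller in the purple than in the orange points.

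Bank1, Cd22 and Ms4a1, genes of B cells, were lower in mLN, and less so with BCL2. Of 24 tested genes of receptor signalling only Bank1 was called in the interaction, higher, with a list median of 0.37 beside 0.00 for all genes. At an unadjusted p under 0.05, 12 were higher and 1 lower, beside 9.34% of all genes, and DESeq2 called 5, beside 150 of 10746 genes. In HEL pos cells 11 of the 24 fell from spleen to mLN and 5 rose, and in BCL2 HEL pos cells 5 fell and 3 rose (24.5% and 10.0% of all genes were called in these arms).

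Bank1, a scaffold that links the B cell receptor to calcium release, stood at 750, 670 and 722 CPM in spleen and 278, 238 and 246 CPM in mLN HEL pos libraries. With BCL2 it stood at 814, 884 and 808 CPM in spleen and 512, 477 and 507 CPM in mLN. Neither tissue's groups overlapped, and the gap between them was wider in mLN. The interaction was 0.75 ± 0.16 (adjusted p = 0.0334) and kept its call in 2 of 12 omissions, with adjusted p-values from 0.0389 to 0.109. Cd79b, a signalling chain of the receptor, stood at 0.86 ± 0.21 (adjusted p = 0.0818) and did not pass the test.

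Cd22, an inhibitory lectin of the receptor, followed the pattern of Bank1. It stood at 1251, 996 and 1218 CPM in spleen and 520, 531 and 540 CPM in mLN HEL pos libraries, and at 1242, 1141 and 1141 CPM in spleen and 985, 938 and 911 CPM in mLN BCL2 libraries. The spleen groups overlapped, while the mLN groups were far apart. The interaction was 0.81 ± 0.17 (adjusted p = 0.0331) and kept its call in 1 of 12 omissions, with adjusted p-values from 0.0171 to 0.115. Cd22 and Pdcd1 were the called members of 15 inhibitory receptor genes, 1 higher and 1 lower, with a list median of 0.32.

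S1pr1, the receptor with which lymphocytes leave a node, was called alone among 23 tested genes of homing and egress (list median 0.12). It stood at 605, 525 and 580 CPM in spleen and 219, 181 and 209 CPM in mLN HEL pos libraries. With BCL2 it stood at 628, 562 and 430 CPM in spleen and 456, 481 and 423 CPM in mLN. The mLN HEL pos libraries were below all others, and the BCL2 spleen and mLN libraries overlapped. The interaction was 1.23 ± 0.20 (adjusted p = 0.0129), from -1.49 in HEL pos and -0.25 in BCL2 HEL pos cells. The adjusted p of S1pr1 and of Gsto1 was 0.0516 without the BCL2 mLN library 922, and both stayed called in the other 11 omissions. The integrin chain Itga4 stood at 0.65 ± 0.17 (adjusted p = 0.113) and the follicle-homing receptor Cxcr5 at 0.49 ± 0.21 (adjusted p = 0.461).

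Ms4a1, the gene of the surface antigen CD20, was chosen for description after its values were seen. It stood at 4238, 4437 and 4678 CPM in spleen and 1459, 1729 and 1526 CPM in mLN HEL pos libraries, against 2167, 2186 and 2054 CPM in spleen and 1481, 1430 and 1437 CPM in mLN with BCL2. Here the mLN groups overlapped and the spleen groups did not, the reverse of Cd22. The interaction was 0.94 ± 0.18 (adjusted p = 0.0236).

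Ifi30, a thiol reductase of lysosomes, had the same shape as Ms4a1. It stood at 1263, 1559 and 1575 CPM in spleen and 254, 338 and 281 CPM in mLN HEL pos libraries, and at 580, 613 and 629 CPM in spleen and 315, 242 and 334 CPM in mLN with BCL2. The spleen HEL pos libraries were the highest, and the mLN groups overlapped. The interaction was 1.30 ± 0.26 (adjusted p = 0.0261). The gene is also known from myeloid cells: granulocyte markers summed to 53.0 CPM or more in the spleen HEL pos libraries and to 76.7 CPM in the spleen HEL neg pool, with S100a8 at 17.3, 26.8 and 101 CPM in the former, and their part in the result was not tested. Granulocyte markers summed to 0.133 to 0.567 CPM in the BCL2 spleen libraries, so the spleen groups that differed in Ifi30 also differed in these markers. In the HEL neg pools Ifi30 stood at 781 CPM in spleen and 861 CPM in mLN, where granulocyte markers summed to 76.7 and 0.640 CPM. With BCL2, Ifi30 was lower in mLN than in spleen by 1.03 on the log2 scale.

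Genes with a positive change from spleen to mLN in HEL pos cells made up the lower calls, though that of 4632428N05Rik did not pass the test. Tagap, a GTPase-activating protein known from activated lymphocytes, stood at 25.2, 20.6 and 15.2 CPM in spleen and 121, 127 and 125 CPM in mLN HEL pos libraries. In BCL2 HEL pos cells it reached 42.4, 75.9 and 88.4 CPM in spleen and 83.0, 120 and 109 CPM in mLN. The spleen HEL pos libraries were the lowest, and the BCL2 spleen and mLN libraries overlapped. The interaction was -2.01 ± 0.30 (adjusted p = 0.00636), from 2.60 to 0.59. Its near copy Tagap1 had an interaction of 0.04 ± 0.34 (adjusted p = 0.9999), and an antisense gene covers 23.2% of Tagap's exon bases, so part of its count is uncertain.

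Gsto1, a glutathione transferase, differed through its spleen level. It stood at 15.3, 14.8 and 13.3 CPM in spleen and 111, 103 and 99.8 CPM in mLN HEL pos libraries, and at 45.9, 50.0 and 52.3 CPM in spleen and 122, 147 and 138 CPM in mLN with BCL2. No groups overlapped: BCL2 libraries were above HEL pos libraries in each tissue, by more in the spleen. The interaction was -1.39 ± 0.22 (adjusted p = 0.0109), with changes of 2.85 and 1.46.

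Promoters of the called genes were searched for fixed motifs, and those of Tagap and Gsto1, 2 of the 3 genes with the smallest p, are shown. Each has the EGR motif GCGGGGGCG, on either strand, within 250 bases before its RefSeq start (GRCm38.p6), and the motif is shown because EGR factors are encoded by immediate early genes of antigen receptor signalling. The bases lie at chr17:7925750-7925999 for Tagap and chr19:47854723-47854972 for Gsto1, both on the plus strand and written 5′ to 3′ with the motif in capitals.
Tagap: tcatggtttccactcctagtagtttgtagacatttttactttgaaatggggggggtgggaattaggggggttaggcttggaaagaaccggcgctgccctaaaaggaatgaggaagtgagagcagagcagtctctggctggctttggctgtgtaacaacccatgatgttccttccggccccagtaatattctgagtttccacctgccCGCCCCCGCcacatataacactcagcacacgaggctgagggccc
Gsto1: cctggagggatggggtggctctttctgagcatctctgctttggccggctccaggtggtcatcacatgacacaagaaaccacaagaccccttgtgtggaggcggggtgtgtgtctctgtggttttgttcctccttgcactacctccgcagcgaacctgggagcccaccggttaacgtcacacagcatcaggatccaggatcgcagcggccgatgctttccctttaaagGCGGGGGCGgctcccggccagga
Of the 44 genes, 32 had a promoter in the RefSeq table. The EGR motif was in 2 of 16 lower calls (12.5%), in 0 of 16 higher calls and in 5.43% of the promoters of 8226 genes tested. No test was made, and 2 matches are too few to tell the share of the lower calls from that of all. The E-box CACGTG was in 4 of 16 higher calls (Ampd3, Ap1s2, Gadd45b and Ifi30), in 1 of 16 lower calls (Mcoln2) and in 10.2% of all. The CRE TGACGTCA (3.12% of all) and the AP-1 motif TGANTCA (5.11% of all) were in 0 of the 32. A match is a description of these letters in this window and not of a bound factor.

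Dusp4, a phosphatase that switches off MAP kinases, was the called gene among 10 tested feedback genes of that pathway (list median 0.28). It stood at 1.46, 1.36 and 3.69 CPM in spleen and 58.2, 40.8 and 38.1 CPM in mLN HEL pos libraries. BCL2 HEL pos libraries gave 8.83, 7.32 and 7.30 CPM in spleen and 44.4, 34.9 and 41.8 CPM in mLN. The mLN groups overlapped, and the spleen levels were higher with BCL2. The interaction was -2.04 ± 0.37 (adjusted p = 0.0236), it was -2.92 (adjusted p = 0.0179) with the pools alone and -1.56 (adjusted p = 0.0926) without the pools, and the call was kept in 8 of 12 omissions.

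Axl, a receptor tyrosine kinase for ligands that coat dying cells, changed most from spleen to mLN among called genes whose average log2 CPM reached 3. It stood at 1.34, 1.21 and 0.738 CPM in spleen and 212, 228 and 193 CPM in mLN HEL pos libraries, and at 3.33, 3.95 and 4.91 CPM in spleen and 81.9, 160 and 112 CPM in mLN with BCL2. BCL2 libraries were higher in spleen and lower in mLN, without overlap in either. The interaction was -2.69 ± 0.52 (adjusted p = 0.0236), with changes of 7.54 and 4.85. These folds rest on spleen HEL pos levels near the floor of 3 counts (0.353 to 0.456 CPM there). The interaction ran from -2.97 to -2.48 over the 12 omissions. Axl was the called gene of 9 tested genes of apoptotic cell recognition (list median -0.27).

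Jup, which encodes plakoglobin, a link between cell contacts and the cytoskeleton, stood at 1.12, 1.67 and 0.295 CPM in spleen and 28.5, 56.4 and 46.5 CPM in mLN HEL pos libraries. The BCL2 libraries had 1.01, 2.32 and 0.796 CPM in spleen and 2.22, 6.28 and 3.46 CPM in mLN. The mLN HEL pos libraries stood far above the rest, and the spleen groups overlapped. The interaction was -3.89 ± 0.75 (adjusted p = 0.0236). It rests in part on spleen HEL pos library 399, which lay below the floor of 3 counts (0.432 CPM there). It ran from -4.38 to -3.25 over the 12 omissions. Among 13 epithelial markers, Epcam stood at 28.1 to 34.6 CPM in the mLN HEL pos libraries and Krt8 at 0. In the spleen HEL pos pool, 392 and 399 Epcam stood at 23.5, 3.34 and 10.2 CPM, and in BCL2 libraries at 3.76 to 6.48 CPM. The part of these markers was not tested.

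Folr4, Pdcd1 and Cd3e, also known from T cells, were lower in the interaction too, and Pdcd1 (the PD-1 receptor) and Cd3e (a chain of the T cell receptor complex) were chosen after their values were seen. Folr4, a folate receptor family gene, stood at 0.896, 3.03 and 0.148 CPM in spleen and 36.5, 36.7 and 40.3 CPM in mLN HEL pos libraries, and at 1.59 to 4.25 CPM in spleen and 2.36 to 7.34 CPM in mLN with BCL2. Pdcd1 stood at 0, 0.303 and 0 CPM in spleen and 20.2, 27.4 and 19.3 CPM in mLN HEL pos libraries and at most at 3.04 CPM in BCL2 libraries. Cd3e stood at 9.22, 10.3 and 2.00 CPM in the mLN HEL pos pool, 392 and 399 and between 0.112 and 3.95 CPM elsewhere. For Folr4 and Pdcd1 the 3 mLN HEL pos libraries were above all others, whereas Cd3e of 399 lay within the BCL2 range.

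The interaction of Folr4 was -3.99 ± 0.83 (adjusted p = 0.0331, kept in 2 of 12 omissions), and the adjusted p was 0.0276 for Pdcd1 and 0.0236 for Cd3e. Fitted folds of Pdcd1 and Cd3e rest on libraries near the floor of 3 counts and are not given. That of Folr4 rests in part on spleen HEL pos library 399, which lay below this floor (0.432 CPM there). It ran from -5.19 to -3.40 over the 12 omissions. Markers of T and NK cells were highest in the mLN HEL pos pool and 392. They summed to 29.4 CPM in mLN 399, of which Thy1 gave 13.6 CPM. Thy1 stood at 7.64 to 18.8 CPM in the HEL pos libraries and at most at 0.709 CPM in the BCL2 ones. In the mLN HEL pos libraries Folr4 stood at 36.5 to 40.3 CPM and Pdcd1 at 19.3 to 27.4 CPM. The part of T cells in these levels was not tested. Folr4 and Pdcd1 were the 2 called among 22 tested genes of anergy and tolerance, both lower, with a list median of -0.22. Cd5, a further negative regulator in that list, stood at 17.4, 18.5 and 16.9 CPM in mLN HEL pos libraries and at most at 4.26 CPM in the other 9, and just missed the call (-2.53 ± 0.57, adjusted p = 0.0512). The proapoptotic Bcl2l11, which encodes BIM, stood at -1.15 ± 0.29 (adjusted p = 0.0875). None of 19 tested genes of the BCL2 family was called by edgeR (3 at an unadjusted p under 0.05, beside 9.34% of all genes, and 1 by DESeq2).

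The remaining named genes fell in the same 2 classes. Higher were Tmem123, a membrane protein, at 1.08 ± 0.20 (372 to 435 CPM in mLN and 1506 to 1737 CPM in spleen HEL pos cells, 445 to 520 and 769 to 974 CPM with BCL2), and Klhl14, a BTB and Kelch domain protein of B cells, at 1.72 ± 0.33. Ampd3, an AMP deaminase, stood at 1.71 ± 0.31 and Ap1s2, a subunit of a clathrin adaptor, at 1.31 ± 0.28; in BCL2 HEL pos cells neither passed the node-spleen test, with changes of 0.09 and 0.03. Cyp27a1, a sterol hydroxylase, stood at 1.52 ± 0.33 and was higher with BCL2 in each tissue, at 42.2 to 72.4 against 21.0 to 23.8 CPM in spleen and 20.6 to 32.0 against 3.46 to 3.89 CPM in mLN. Lower were Hpgds, a prostaglandin D synthase, at -2.02 ± 0.37, Vat1 at -1.71 ± 0.33, Litaf, a protein of late endosomes, at -1.81 ± 0.35, and Mcoln2, an endolysosomal cation channel, at -1.74 ± 0.36. Their adjusted p-values lay between 0.0236 and 0.0407.

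4632428N05Rik, the older symbol of the gene of the checkpoint protein VISTA, had changes of opposite sign in the 2 kinds of cells, of which the one in HEL pos cells did not pass the test. It stood at 11.7, 9.39 and 16.2 CPM in spleen and 20.9, 19.7 and 18.0 CPM in mLN HEL pos libraries, and at 46.3, 43.8 and 40.6 CPM in spleen and 18.1, 23.2 and 19.5 CPM in mLN with BCL2. The mLN groups overlapped, and the BCL2 spleen libraries were above all others. The interaction was -1.76 ± 0.37 (adjusted p = 0.0334), with 0.65 in HEL pos (adjusted p = 0.0796) and -1.10 in BCL2 HEL pos cells. Arhgap24, a GTPase-activating protein named after its values were seen, had the opposite signs, at 1.27 ± 0.24 (adjusted p = 0.0236), with -0.33 (adjusted p = 0.169) and 0.94; its BCL2 spleen libraries (16.4 to 22.2 CPM) were below all others (26.2 to 44.6 CPM).

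Read within a tissue, the 44 genes split by the side on which both kinds of cells differed. BCL2 HEL pos and HEL pos cells differed in 1070 genes (9.37%) in spleen and 1334 (11.7%) in mLN. Of the 44, 31 were called in spleen and 24 in mLN, with 11 in both, 20 in spleen only by this threshold and 13 in mLN only. Gsto1, Tagap, Cd36 and 4632428N05Rik were called in spleen, at 1.77, 1.75, -2.73 and 1.81, of which Cd36 was also called in mLN. S1pr1, Cd22, Bank1, Jup and Folr4 were called in mLN and not in spleen, at 1.16, 0.83, 0.97, -3.44 and -3.05. Hes1 was called in both with opposite signs, -0.995 ± 0.16 in spleen and 0.83 ± 0.17 in mLN, and so was Axl, at 1.85 and -0.84. These contrasts share libraries with the interaction and are given as a description.

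**Figure D4:**
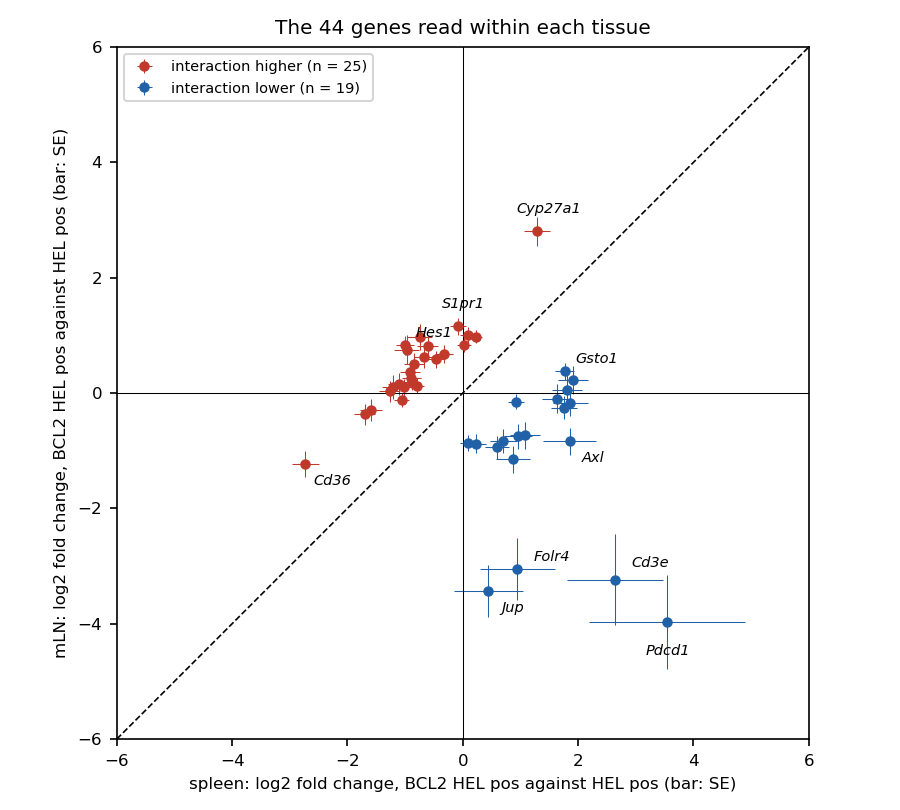
Log2 fold change of BCL2 HEL pos against HEL pos cells in spleen (x axis) and in mLN (y axis) for the 44 called genes, with SE bars, red for higher and blue for lower interaction. Points near the horizontal line, such as Gsto1, differ in spleen, and points near the vertical line, such as S1pr1 and Jup, differ in mLN.

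Several lists had 0 calls in the interaction. None of 32 interferon-stimulated genes was called by edgeR, while 28 values were below zero, the median was -0.69, 14 were lower and 1 higher at an unadjusted p under 0.05, and DESeq2 called 3. Over all genes 9.34% had an interaction with an unadjusted p under 0.05, and DESeq2 called 150 of 10746. From spleen to mLN 6 rose and 2 fell in HEL pos cells, and 1 rose and 9 fell with BCL2, beside 24.5% and 10.0% of all genes called. The share of the list called in HEL pos cells was thus close to that of all genes. Irf7, the interferon regulatory factor of this response, stood at 51.9, 57.4 and 41.2 CPM in spleen and 24.9, 40.5 and 51.0 CPM in mLN HEL pos libraries, and at 139, 91.9 and 123 CPM in spleen and 47.5, 24.1 and 31.8 CPM in mLN with BCL2 (-1.40 ± 0.37, adjusted p = 0.113). The BCL2 spleen libraries were the high ones. The mean log2 CPM of the list was 4.71, 5.05 and 5.47 in the mLN HEL pos pool, 392 and 399, a spread wider than in the other groups (4.79 to 4.94 in spleen HEL pos, 5.18 to 5.46 in spleen and 4.79 to 4.83 in mLN with BCL2).

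None of 17 Toll-like receptor genes was called by edgeR or by DESeq2 (5 higher at an unadjusted p under 0.05), with a median of 0.34 and 16 values above zero; Tlr1 stood at 0.59 ± 0.20 (adjusted p = 0.293). None of 27 immediate early genes was called (4 lower at an unadjusted p under 0.05, 1 by DESeq2), with a median of -0.37. Egr2, a transcription factor of this list, stood at 5.38, 4.09 and 5.46 CPM in spleen and 142, 137 and 175 CPM in mLN HEL pos libraries, and at 2.75, 6.16 and 3.19 CPM in spleen and 44.1, 74.2 and 34.3 CPM in mLN with BCL2. It was higher in mLN in both kinds of cells, and its interaction did not pass the test (-1.29 ± 0.47, adjusted p = 0.332). Lists of oxidative phosphorylation (26 genes, median -0.06), glycolysis (20, -0.11) and ribosomal proteins (76, 0.11) also had 0 calls by edgeR, with 0, 4 and 0 at an unadjusted p under 0.05 and 0, 1 and 0 by DESeq2. The share of all genes with an unadjusted p under 0.05 was 9.34%.

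**Figure D5:**
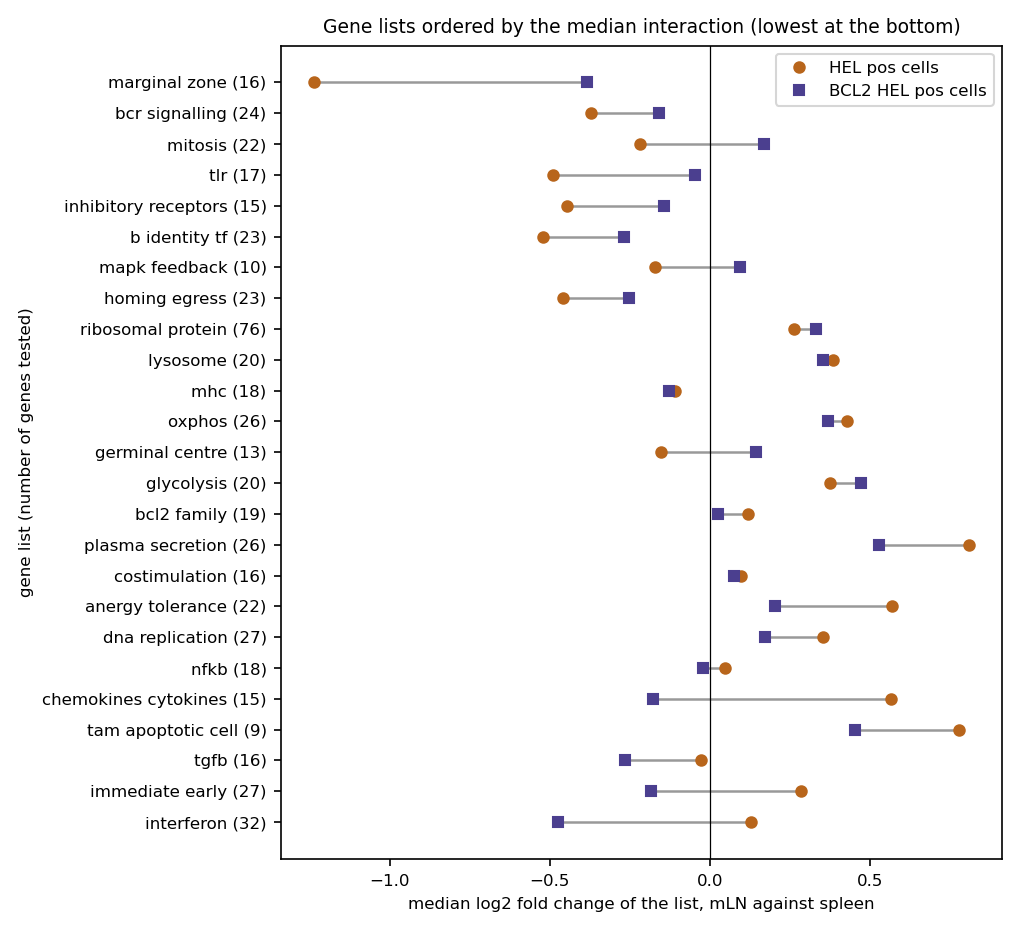
Median log2 fold change from spleen to mLN (x axis) of 25 gene lists (y axis, with the number of genes tested) in HEL pos cells (orange circles) and BCL2 HEL pos cells (purple squares), ordered by the median interaction. The widest gaps are those of the marginal zone list at the top (-1.24 and -0.38) and of the chemokine and interferon lists further down.

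The same subtraction with PP in place of mLN uses the same spleen libraries, so both values are given side by side without a test between them. Hes1 was the 1 gene of the 44 called there, at 1.54 ± 0.22 (adjusted p = 0.0088), beside 1.83 in mLN. The count over all genes there is not given here. Tagap stood at -1.64 ± 0.30 beside -2.01, Cr2 at 1.11 ± 0.25 beside 1.42 and Gsto1 at -0.93 ± 0.22 beside -1.39. S1pr1 stood at 0.75 ± 0.20 beside 1.23 and Cd36 at 0.25 ± 0.32 beside 1.49. In PP these 5 did not pass the test (edgeR adjusted p = 0.0797, 0.128, 0.146, 0.259 and 0.847). HEL neg B cells have 1 pool per tissue and no replicate. Their node-spleen difference had the sign of HEL pos cells in 24 of the 44 genes, and the share over all genes is not given here. Without a replicate the sign of a difference near zero is uncertain, as for Tagap (-0.006), Rbpj (-0.032) and Mcoln2 (0.036). Hes1 stood at 65.3 CPM in spleen and 39.3 CPM in mLN HEL neg cells, a difference of -0.73, and Tagap at 45.1 and 44.9 CPM.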

How the data were processed

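RNA was measured in B cells sorted from spleen, mLN and PP with single-end 50-bp reads, per the labels. These mention the TruSeq as well as the Nextera XT preparation, which leaves kit and strand uncertain. The authors deposited whole-number counts per gene for all 21 libraries in 1 table. The submitters' processing notes list STAR, HTSeq and DESeq2 with the build mm10; what each did, and its version, is not given in sources used here. Columns were matched to libraries by the sample numbers in the labels. Of 23337 gene symbols 20929 were found in GENCODE M21 (mm10), from which coordinates and exon overlaps were taken. Ell3 and Fam129c share 65.6% and 21.8% of their exon bases with another gene on the same strand, so their counts are uncertain.

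From these counts, 1 model of 18 libraries in 6 groups (HEL pos and BCL2 HEL pos cells of spleen, mLN and PP) was fitted with edgeR 4.0.16 in R 4.3.3 (filterByExpr by group, TMM, quasi-likelihood test, two-sided, 12 residual degrees of freedom and a biological coefficient of variation of 0.207), so that all groups share 1 estimate of the spread. P-values were adjusted by Benjamini-Hochberg over all 11419 genes, and a call is an adjusted p under 0.05. Errors of fold changes are SE. Levels of single genes are CPM of TMM-scaled totals; marker sums are CPM of plain totals. The tests were checked on simulated counts.

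Named genes were, among calls whose average log2 CPM reached 3, the 10 highest and 10 lowest interactions, the 8 smallest p, and up to 4 called members of each of 25 gene lists, plus Bcl2; 1 gene so chosen is not reported here. Other genes, and list members given with values that did not pass, were chosen after their values were seen. Members and lists were chosen with earlier results of these data known. Motifs were searched on both strands in the 250 bases before the start in RefSeq promoters of GRCm38.p6. Alternatives were DESeq2 1.42.0, its size factors, no low-count filter, only the 12 compared libraries, the library number as a block, each library left out, no HEL pos pools, and the pools alone.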

Additional observations from a re-analysis of the deposited data

Results flagged for a closer look

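For 44 genes the change from spleen to mLN differed between BCL2 HEL pos and HEL pos cells by the test of that difference, the edgeR interaction, at an adjusted p under 0.05. The groups have 3 libraries, so single libraries were not screened as outliers. The interactions of the genes named here, as log2 differences of differences from the edgeR fit, were 1.83 for Hes1, 1.23 for S1pr1, 1.42 for Cr2, 1.08 for Tmem123, 1.71 for Ampd3, 1.35 for Cd1d1, 1.72 for Klhl14, 1.30 for Ifi30, 0.81 for Cd22, 0.75 for Bank1, 1.49 for Cd36, 1.31 for Ap1s2 and 1.52 for Cyp27a1 among the higher calls. Among the lower calls they were -2.01 for Tagap, -1.39 for Gsto1, -1.07 for Rbpj, -2.04 for Dusp4, -2.02 for Hpgds, -2.69 for Axl, -3.89 for Jup, -1.71 for Vat1, -1.81 for Litaf, -3.99 for Folr4, -1.74 for Mcoln2 and -1.76 for 4632428N05Rik. All 9 pairwise differences of 1 arm lay apart from the 9 of the other for each of these genes, as for 752 (6.59%) of all genes tested. The genes were chosen on the same libraries, so this is a description.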

How the results depend on the processing

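All 44 genes kept their direction in all 20 alternatives and were also called by DESeq2, with DESeq2 size factors, without the low-count filter, in the 12 libraries alone and in both block fits. The number of calls moved more, and the cause was not tested: 150 by DESeq2 (83 higher, 67 lower), 191 without the filter (107 and 84), 90 in the 12 libraries alone (55 and 35), where BCL2 HEL pos and HEL pos spleen cells differed in 1668 genes, and 46 with DESeq2 size factors. Without the pooled HEL pos libraries it was 8 (6 and 2). With the pools alone as HEL pos cells, where a lone library is assumed to vary like the other groups, it was 2 (1 and 1); the HEL pos arm then had 340 calls, and the kinds of cells differed in 115 genes in mLN and 182 in spleen.

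With 1 library left out, interaction calls ran from 2 to 39, higher calls from 1 to 22 and lower calls from 1 to 18. Calls in the BCL2 arm ran from 561 to 1102, those between the kinds of cells from 569 to 975 in spleen and from 654 to 1300 in mLN. The share of calls with the smaller change in BCL2 HEL pos cells (95.5% as reported) ran from 80 to 100% and was 100% both without the pools and with the pools alone. Of the fold changes of named genes, 282 of 500 kept their call, 218 lost it and 0 reversed.

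With the library number as a block, calls were 192 (108 higher, 84 lower) and the BCL2 arm had 1773; in the 12 libraries alone they were 380 (223 and 157) and 2331. The labels do not say that a number marks 1 mouse. Deviations from the group mean of same-numbered spleen and mLN libraries correlated at 0.527, 0.219 and 0.0815 in HEL pos and 0.299, 0.258 and 0.231 in BCL2 HEL pos cells. Differently numbered pairs lay between -0.394 and 0.186 in HEL pos and between -0.226 and -0.0206 in BCL2 HEL pos cells. Deviations within a group sum to 0, so positive values of same-numbered pairs push the others below zero by construction. Of 6 spleen libraries 5 correlated best with their own number, and 399 with mLN 392 (0.186). This is a hint of pairing from the data and not from the design; as 399 did not show it, the unpaired fit was kept, and the larger counts with the block stand beside it. With 3 libraries per group, changes of genes near 0.289 to 0.456 CPM, the floor of 3 counts, could not be resolved.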

Other observations

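Genes chosen after their values were seen also included a group of B cell transcription factors. Of 23 tested genes of B cell identity 0 were called in the interaction by edgeR (7 at an unadjusted p under 0.05, 1 by DESeq2), with a median of 0.29. Over all genes 9.34% had an interaction with an unadjusted p under 0.05, and DESeq2 called 150 of 10746. From spleen to mLN 11 of the 23 fell and 4 rose in HEL pos cells, and 6 fell and 3 rose in BCL2 HEL pos cells. Of all genes 24.5% and 10.0% were called in these arms. Batf, an AP-1 family factor of activated lymphocytes, stood at 39.9, 32.0 and 31.7 CPM in spleen and 175, 137 and 131 CPM in mLN HEL pos libraries, and at 39.4, 35.8 and 37.7 CPM in spleen and 76.2, 83.1 and 83.8 CPM in mLN with BCL2. The spleen groups overlapped and the mLN groups did not, and the interaction was -0.98 ± 0.23 (edgeR adjusted p = 0.0664).

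Cd63, a tetraspanin of late endosomes, stood at 39.2, 47.0 and 51.2 CPM in mLN HEL pos libraries and 3.34, 3.02 and 2.91 CPM in mLN BCL2 libraries, and at most at 0.738 CPM in the spleen libraries of either. Its interaction did not pass the test (edgeR adjusted p = 0.081).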
